A study of Mus musculus with 1479 samples.

Results

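A set of 10 genes was followed through the stromal cells of the adult mouse bladder: the fibroblast growth factor (FGF) ligand genes Fgf1, Fgf2, Fgf7, Fgf10 and Fgf18, the hepatocyte growth factor gene Hgf, and the receptor genes Fgfr1, Fgfr2, Fgfr3 and Fgfr4. They were chosen by name, as 10 of the 46517 gene rows of the count table, and all 10 had at least 1 read. The study compared fibroblasts with mural cells, the smooth muscle cells and pericytes of the vessel wall, in several organs. The samples used here are 1479 single bladder cells, sequenced by Smart-seq2, a protocol that reads whole transcripts of cells sorted into plates. Each cell carries the study's cluster number, 1 to 11. Cluster 10 is the study's mural cluster, cluster 5 holds its sub-epithelial fibroblasts (76 cells), and the 10 fibroblast clusters together hold 1354 cells.

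The cells came from male mice aged 10 to 20 weeks of 5 lines on a C57Bl6/J background, and the labels name no treatment. PdgfraGFP mice (9.94% of the cells) carry a nuclear H2B-GFP knocked into Pdgfra. PdgfrbGFP (54.8%), Cspg4dsRED (13.7%) and Acta2GFP (8.72%) mice carry GFP or DsRed transgenes driven by Pdgfrb, Cspg4 and Acta2, and C57BL6 mice (12.8%) carry no reporter and were sorted with antibodies to PDGFRα or PDGFRβ. Endothelial cells were gated out by CD31. The labels name no animal, so the mouse line was the unit of replication: the p-values measure the spread between lines, which share a genetic background but differ in sort and largely in plate. The cells lie on 6 plates, and only PdgfrbGFP (3) and Cspg4dsRED (2) were spread over more than 1.

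Most FGFs are secreted ligands that bind receptor tyrosine kinases together with heparan sulfate, and most act over short distances. FGF7 and FGF10 are classic mesenchymal ligands for an epithelial splice form of FGFR2, and both are known to act on the urothelium, the epithelium that lines the bladder. HGF, also a mesenchymal ligand, acts through another receptor, MET. FGF1 and FGF2 lack a classical secretion signal and bind a wide range of FGF receptors. The counts are per gene, so splice forms of a receptor could not be told apart.

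Endogenous reads per cell ran from 48455 to 1433402 with a median of 212483, and the median per line from 117026 to 292807. The markers of each label were read first. Clusters were drawn from these same expression values, and the study lists many of these markers from its own data. High sums in the matching cluster therefore describe the labels and do not test them. The summed level of 8 mural markers was 10329 reads per 500000 in cluster 10 and 58.9 to 518 elsewhere, that of 6 fibroblast markers 1130 in cluster 10 and 7945 to 17583 elsewhere, and that of 4 sub-epithelial markers 1815 in cluster 5 and 7.95 to 250.1 elsewhere. Urothelial markers summed to between 0.141 and 18.3 in the 11 clusters. Of these 10 markers only Krt14, a basal urothelial keratin, was at 0 in every cluster. In clusters 3 and 7 it was the only marker at 0, so its absence does not stand for the others. The highest sum in a line was 68.5, in cluster 5, where 13.2% of cells had at least 10 urothelial reads, against 0 to 6.91% in the other clusters. Endothelial (9.7 to 33.1), immune (1.26 to 33.7) and glial (0.385 to 12.5) markers were also low. Levels are scaled to 500000 endogenous reads in each cell, and a mean was taken within each line that had 3 cells or more and then across lines. Shares are of cells with at least 1 read after each cell was thinned to 50000 reads, with exact Clopper-Pearson 95% intervals that cover counting error only.

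To set genes beside each other, levels were divided by exon length. In fibroblasts Fgfr1 led with 37 ± 5.12 reads per 500000 per kb (SD, n = 5 lines), followed by Fgf7 with 7.60 ± 2.91 and Fgfr3 with 3.32 ± 2.75. Fgf2 (1.24 ± 0.494), Fgf1 (1.10 ± 1.36), Fgf10 (1.05 ± 0.872), Fgfr2 (0.718 ± 0.481), Hgf (0.360 ± 0.296) and Fgf18 (0.326 ± 0.413) followed, with SDs that overlap between neighbours. Fgfr4 stood at 0.00506. In cluster 10 the leading genes per kb were Fgf1 at 23.3 ± 15.4 and Fgfr1 at 13.1 ± 8.64 (n = 4 lines). Within the set and per kb, Fgfr1 and Fgf7 led the fibroblasts, and Fgf1 and Fgfr1 led cluster 10. The SDs of Fgf7 and Fgfr3 in fibroblasts overlap. Not divided by length, Fgf7 had 24.7 ± 9.44 and Fgfr3 23.7 ± 19.7 in fibroblasts. In cluster 10 Fgfr1 had 129.6 ± 85.3 and Fgf1 127.5 ± 84.2.

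**Figure D1:**
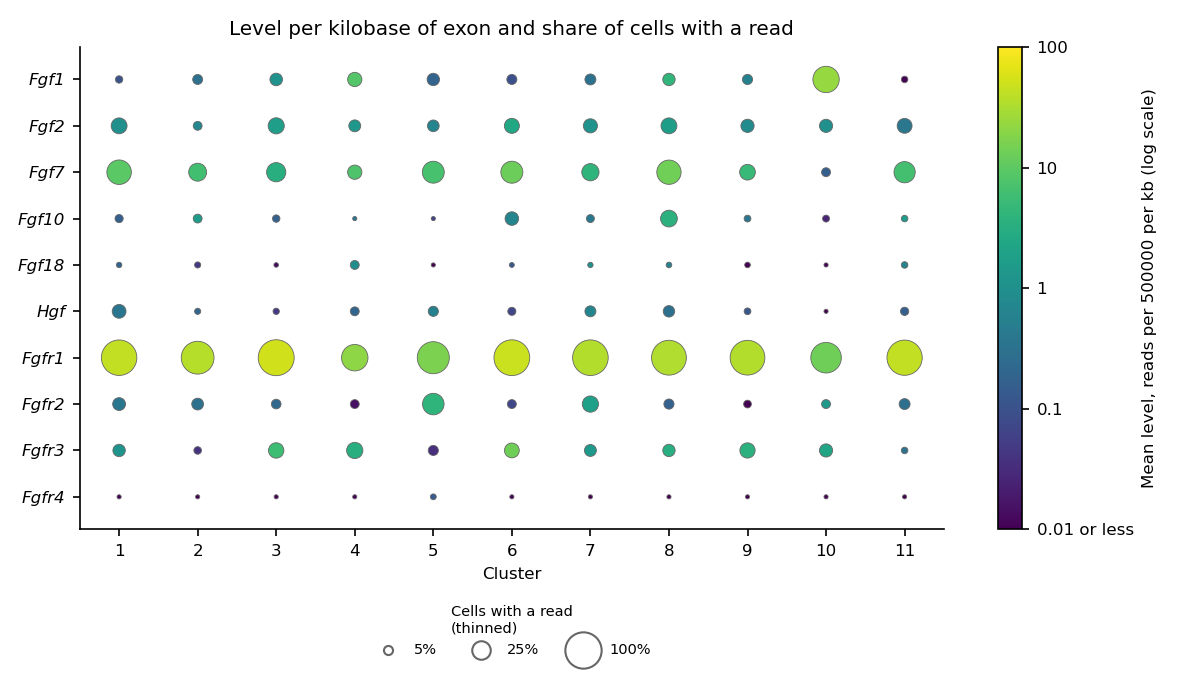
Level per kilobase of exon (colour, log scale, reads per 500000 per kb, mean over lines) and share of thinned cells with a read (dot area) for the 10 genes in clusters 1 to 11. Fgfr1 has the largest dots in every cluster, Fgf7 has large dots in most fibroblast clusters and a small one in cluster 10, and Fgf1 has its largest dot in cluster 10.

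**Figure D2:**
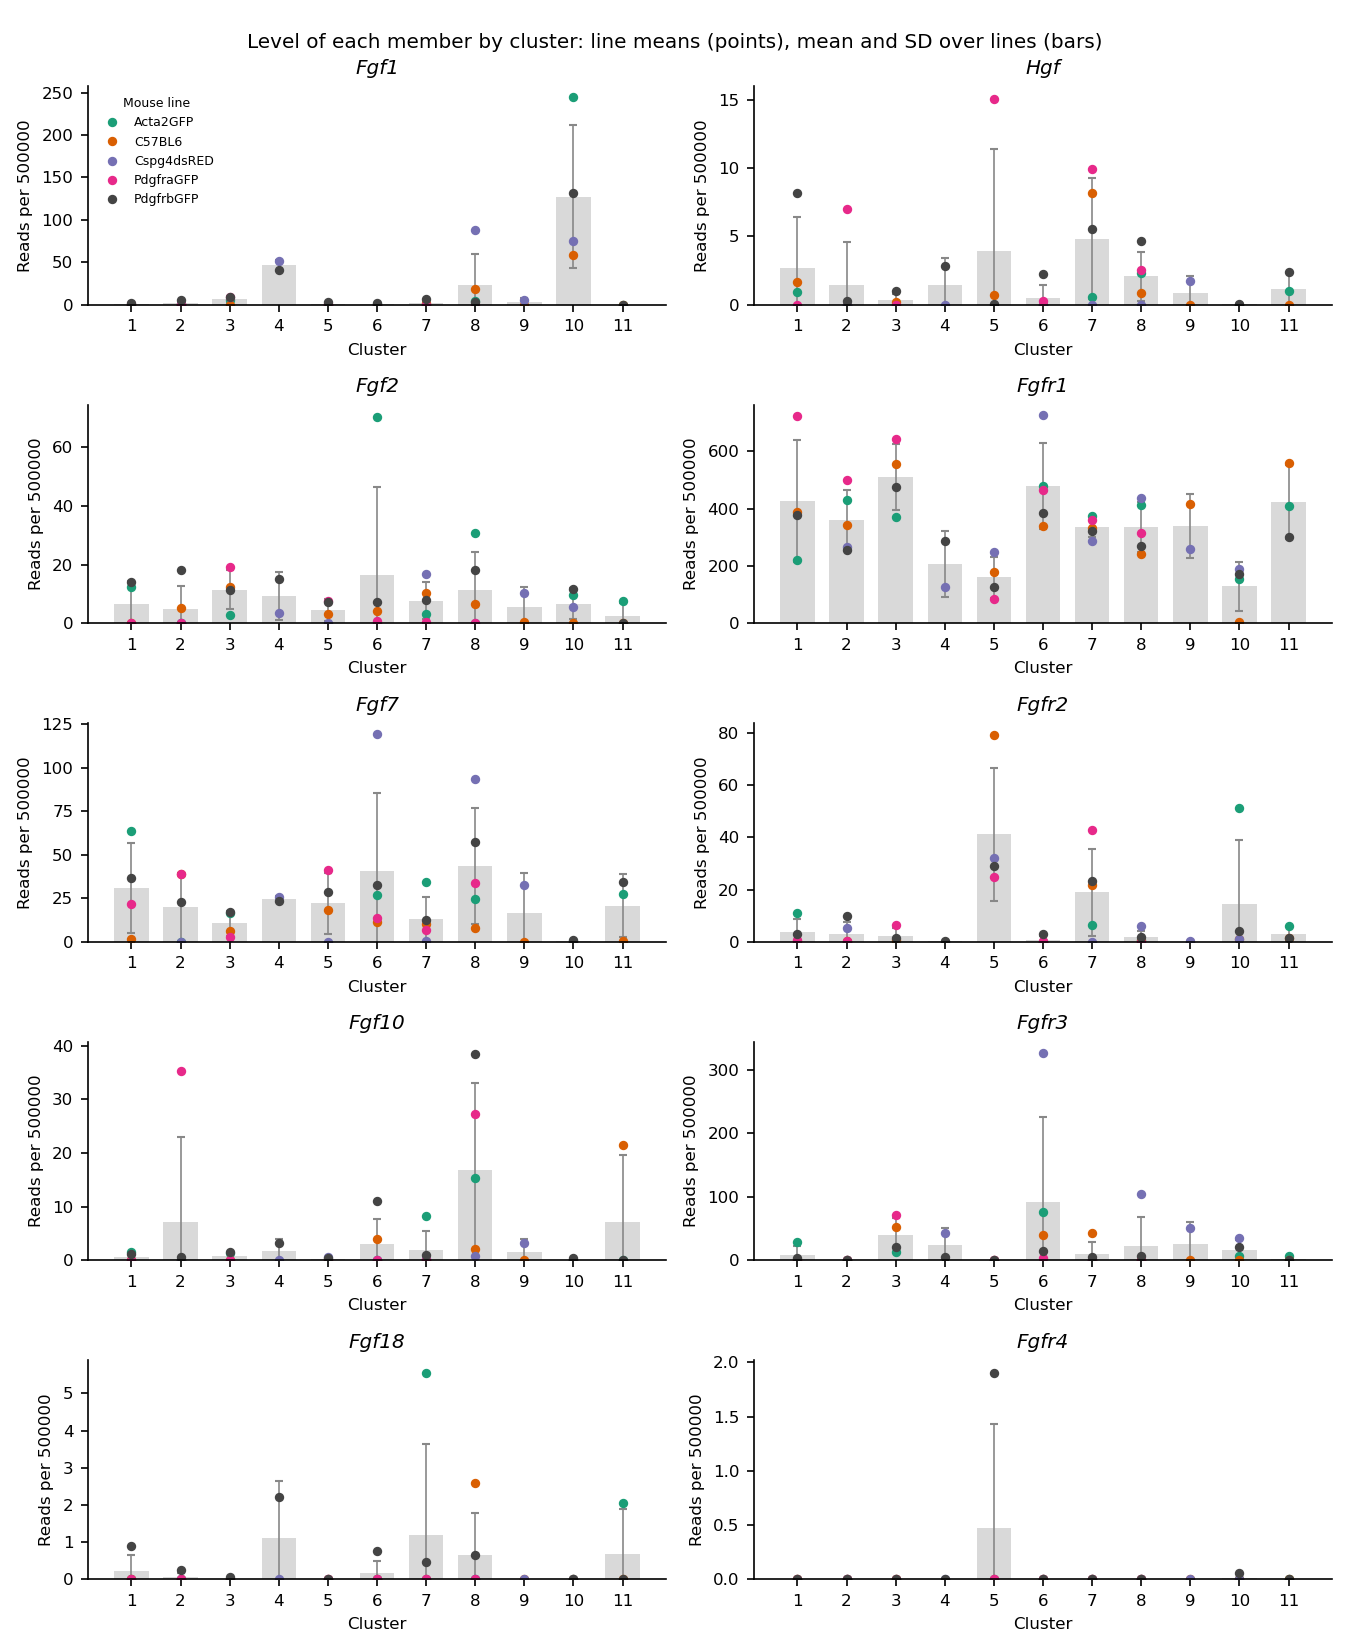
Level of each gene (reads per 500000, not divided by length) by cluster. Points are mouse lines with at least 3 cells, bars the mean over lines and whiskers the SD, with the part below 0 not drawn; Fgf1 is highest in cluster 10, Fgfr2 in clusters 5 and 7, and Fgf10 in cluster 8, where the 5 lines run from 0.877 to 38.4.

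Fgf1 was the one gene of the set that edgeR called higher in the mural cluster. Its level in cluster 10 was 244.7 in Acta2GFP (12 cells), 58.5 in C57BL6 (3 cells), 75 in Cspg4dsRED (65 cells) and 131.7 in PdgfrbGFP (45 cells). The fibroblasts of those lines had 2.38, 2.39, 19 and 5.50. Every line was higher in cluster 10 and the groups did not overlap. How many of all tested genes show no overlap was not counted. Non-overlap is therefore a description only, here and for the genes below. The log2 fold change was 4.13 ± 0.92 (SE, edgeR quasi-likelihood test on sums per line, adjusted p = 0.00899, n = 4 lines), which is 5.06 above the median of all tested genes. That median was -0.93 in this comparison, so changes are also read relative to it. Of 16092 genes tested, 6.38% were called at an adjusted p under 0.05, 2.27% as higher and 4.11% as lower in cluster 10. Of the 9 genes of the set that could be tested, 1 was called higher and 2 lower. Over 17 alternatives the adjusted p for Fgf1 ran from 9.57e-07 to 0.0903, and the call was lost without Acta2GFP (0.0867) and without PdgfrbGFP (0.0903), with log2 fold changes of 3.64 to 4.71 when any line was left out. Within plates, all 7 sets of cells of 1 line on 1 plate had the higher level in cluster 10.

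Fgf1 reads were spread over many mural cells. A read was found in 52% of the thinned cells (interval 42.9 to 61, 56.8% unthinned) and the 3 highest cells held 14.9% of the 4786 reads. The share in the other 10 clusters was 1.96% to 14.3%. In PdgfrbGFP alone it was 68.9% (53.4 to 81.8) in cluster 10 and at most 21.1% in the fibroblast clusters with at least 15 cells. By level, cluster 4 came next with 46.2 ± 6.83 (n = 2 lines), but 4 of its 23 cells had a read and 3 of them held 99% of its reads. In the 2 lines that have both clusters, cluster 10 stood above cluster 4 by 57.1 ± 46.9. Cluster 8 had 22.8 ± 37 with 87.7 in Cspg4dsRED and at most 18.5 in the other lines, cluster 3 had 6.14 ± 4.32 and the rest at most 3.04, and below cluster 10 no neighbours in this order differed by more than the SD of their difference.

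The share of fibroblasts with Fgf1 was also read by the number of cluster 10 cells near them on the plate, over all plates and lines together. It was 7.27% of 523 fibroblasts with no cluster 10 cell in the same row or column, 7.43% of 673 with 1 to 4 such cells and 15.1% of those with 5 or more. The shares of Myh11, a smooth muscle myosin, were 8.80%, 21.1% and 39.5% in the same cells. By plate and line, the Fgf1 share of fibroblasts was 11.9%, 7.50% and 12.8% in the 3 PdgfrbGFP sets, which had 4, 21 and 20 cluster 10 cells. It was 6.40% in the Cspg4dsRED set with 49 such cells and 30% of only 10 fibroblasts in the one with 16, where the Fgf1 level was 81.7. It was 5.98% in Acta2GFP with 12 such cells, 2.67% in C57BL6 with 3 and 1.36% in PdgfraGFP, which had no cluster 10 cell. Well position and plate cannot be told apart in these shares.

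**Figure D3:**
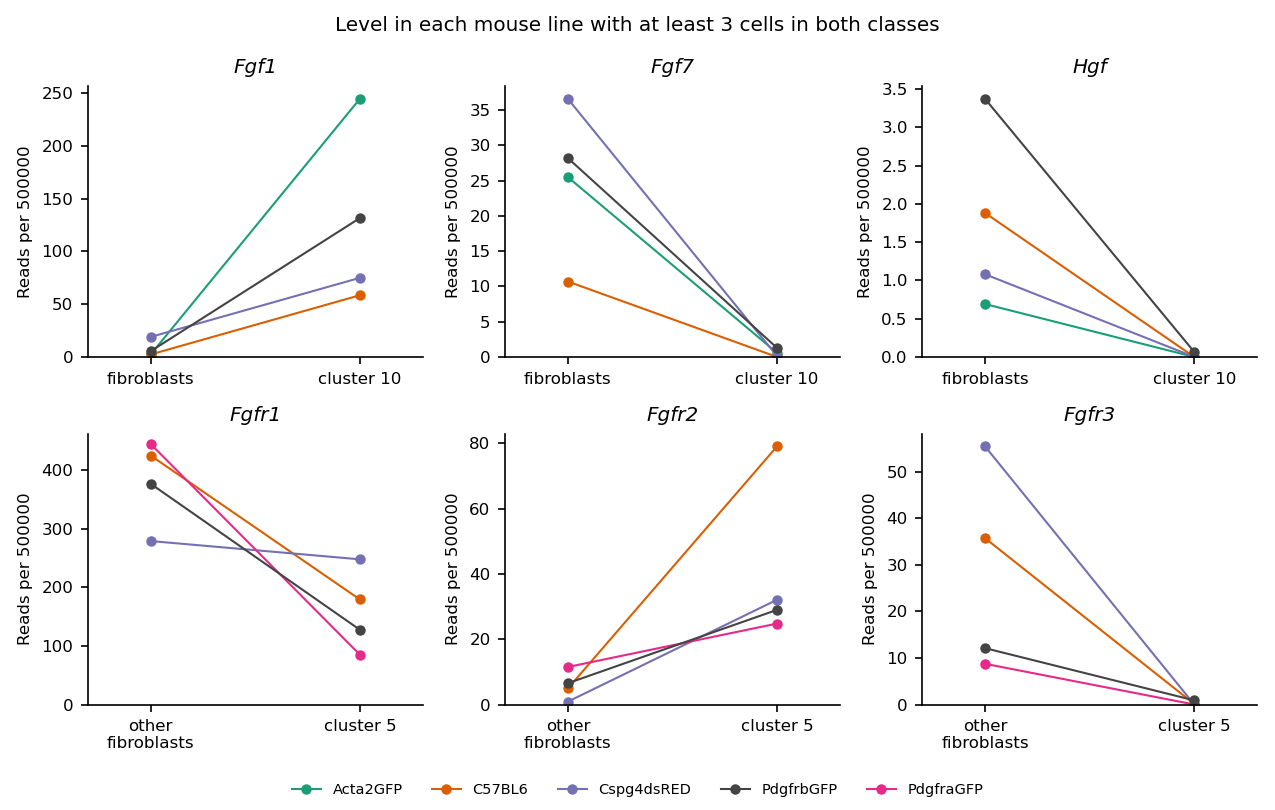
Level (reads per 500000) in each mouse line with at least 3 cells in both classes, lines joining the 2 classes of 1 mouse line. Upper row, fibroblasts and cluster 10: Fgf1 is higher and Fgf7 and Hgf lower in cluster 10 in all 4 lines; lower row, other fibroblasts and cluster 5, where edgeR called none of Fgfr1, Fgfr2 and Fgfr3 (adjusted p 0.0793, 0.204 and 0.0869), while DESeq2 called Fgfr2 and Fgfr3 and limma-voom Fgfr1 and Fgfr3.

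Fgf7 and Hgf were the 2 genes of the set that edgeR called lower in cluster 10. DESeq2 called Fgf10 as well, and limma-voom called Fgf7 and Fgf10 but not Hgf. The proximal promoters of Fgf7 and Hgf are shown as sequence only, and a shared control of these genes was not tested. A second Hgf start, with the window chr5:16553651-16553900, is not shown. The sequences are the 250 bases before the first RefSeq start (GRCm38.p6), both on the plus strand, chr2:126034408-126034657 for Fgf7 and chr5:16553245-16553494 for Hgf. The first starts of both coincide with the GENCODE gene starts.
Fgf7: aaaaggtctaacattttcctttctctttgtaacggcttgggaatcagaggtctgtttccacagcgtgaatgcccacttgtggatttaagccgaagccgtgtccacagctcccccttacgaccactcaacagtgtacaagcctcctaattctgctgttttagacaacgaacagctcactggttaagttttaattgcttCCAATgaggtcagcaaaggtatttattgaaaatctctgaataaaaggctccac
Hgf: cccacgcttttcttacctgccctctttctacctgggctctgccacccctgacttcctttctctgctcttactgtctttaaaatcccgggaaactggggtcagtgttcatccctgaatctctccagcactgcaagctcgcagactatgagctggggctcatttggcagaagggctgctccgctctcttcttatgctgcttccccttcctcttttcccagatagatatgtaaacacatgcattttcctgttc
Capitals mark a CCAAT box at -53 to -49 of Fgf7. The letters searched on both strands were TATAAA (in 12.4% of the 32851 promoters of the table), CCAAT (33.8%) and GGGCGG (32.7%), which do not overlap in these windows. The Hgf window held none of these letters, and has a GC content of 50.8% against 43.6% for Fgf7. The promoter table held 8 of the 10 genes.

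Fgf7, which encodes keratinocyte growth factor, lies at chr2:126034658-126091185 (GRCm38, plus strand). Its level in fibroblasts was 25.5 in Acta2GFP, 10.7 in C57BL6, 36.6 in Cspg4dsRED and 28.2 in PdgfrbGFP. In cluster 10 the same lines had 0.575, 0, 0.113 and 1.28. All 4 lines were lower there and the groups did not overlap. The log2 fold change was -6.28 ± 1.58 (SE, adjusted p = 0.0207). Set against the median of all tested genes it was -5.35. The call was lost when the median gene was set to 0 (adjusted p = 0.0593) and without Acta2GFP (0.0745), Cspg4dsRED (0.153) or PdgfrbGFP (0.0928), in a range over 17 alternatives of 1.33e-07 to 0.153. All 7 sets within plates were lower in cluster 10, where 24 reads fell in 19 cells and the thinned share was 4.80% (1.78 to 10.2, unthinned 15.2%).

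Among fibroblasts Fgf7 was spread over all 10 clusters. The mean level over lines was 43.5 ± 33.2 in cluster 8, 40.8 ± 44.8 in cluster 6, 31 ± 26 in cluster 1, 24.6 ± 1.54 in cluster 4, 22.2 ± 17.5 in cluster 5, 20.7 ± 18 in cluster 11, 20.1 ± 19.5 in cluster 2, 16.4 ± 23.1 in cluster 9, 13 ± 12.8 in cluster 7 and 10.7 ± 7.23 in cluster 3. The highest single value was 119.3 in the 3 Cspg4dsRED cells of cluster 6, the next 93.7 in Cspg4dsRED of cluster 8. Of the neighbours in this order, only clusters 3 and 10 differed by more than the SD over shared lines (12.8 ± 5.42, 3 lines). Shares were 44.8% (35 to 54.8) in cluster 1, 44% (36.6 to 51.5) in cluster 8, 35.8% in cluster 6, 35.5% in cluster 5 and 14.3% to 33.3% in the other fibroblast clusters. In PdgfrbGFP alone, 55% (45.7 to 64.1) of cluster 8 cells had a read, 33% of cluster 3 and 24.6% of cluster 7. The share over all fibroblasts ran from 15% in C57BL6 to 39.2% in PdgfrbGFP at the same thinned depth, so a pooled share also holds the make-up of the lines. It also differed within PdgfrbGFP, with 42.2%, 20.6% and 47.1% on its 3 plates.

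Fgf10, the second FGFR2 epithelial ligand, lies at chr13:118669791-118792115 (plus strand) and had its highest level and share in cluster 8. The level in cluster 8 was 38.4 in PdgfrbGFP, 27.3 in PdgfraGFP, 15.4 in Acta2GFP, 2.14 in C57BL6 and 0.877 in Cspg4dsRED, a mean of 16.8 ± 16.2. Clusters 2 and 11 each had 7.20, from 35.4 in PdgfraGFP in the first and 21.6 in the 3 C57BL6 cells of the second, against at most 0.611 in their other lines. Cluster 6 had 3.01 ± 4.77 and the other fibroblast clusters 0.284 to 1.92. No neighbours in this order differed by more than their spread. A read was found in 20.3% of cluster 8 cells (14.7 to 26.9) and 12.8% of cluster 6 cells (8.40 to 18.5), against at most 4.69% in the other clusters. In PdgfrbGFP alone the shares were 23.3% (16.1 to 31.9) and 17.8% (11.7 to 25.5), and at most 6.67% elsewhere among clusters with at least 15 cells. In cluster 5 thinned cells with a read numbered 0 of 76, which allows a share of up to 4.74%, although 14.5% of its unthinned cells had one.

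In cluster 10 the level of Fgf10 was 0 in 3 lines and 0.473 in PdgfrbGFP, with 2.62, 0.998, 2.16 and 8.72 in the fibroblasts of Acta2GFP, C57BL6, Cspg4dsRED and PdgfrbGFP. The groups did not overlap, but the log2 fold change of -5.70 ± 1.89 did not pass (adjusted p = 0.0721). It passed under DESeq2 (0.00757), with sums per plate and line (0.00529) and under limma-voom (0.0439), in a range over 17 alternatives of 0.00529 to 0.249. Cluster 10 held 10 reads and the fibroblasts 4301.

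**Figure D4:**
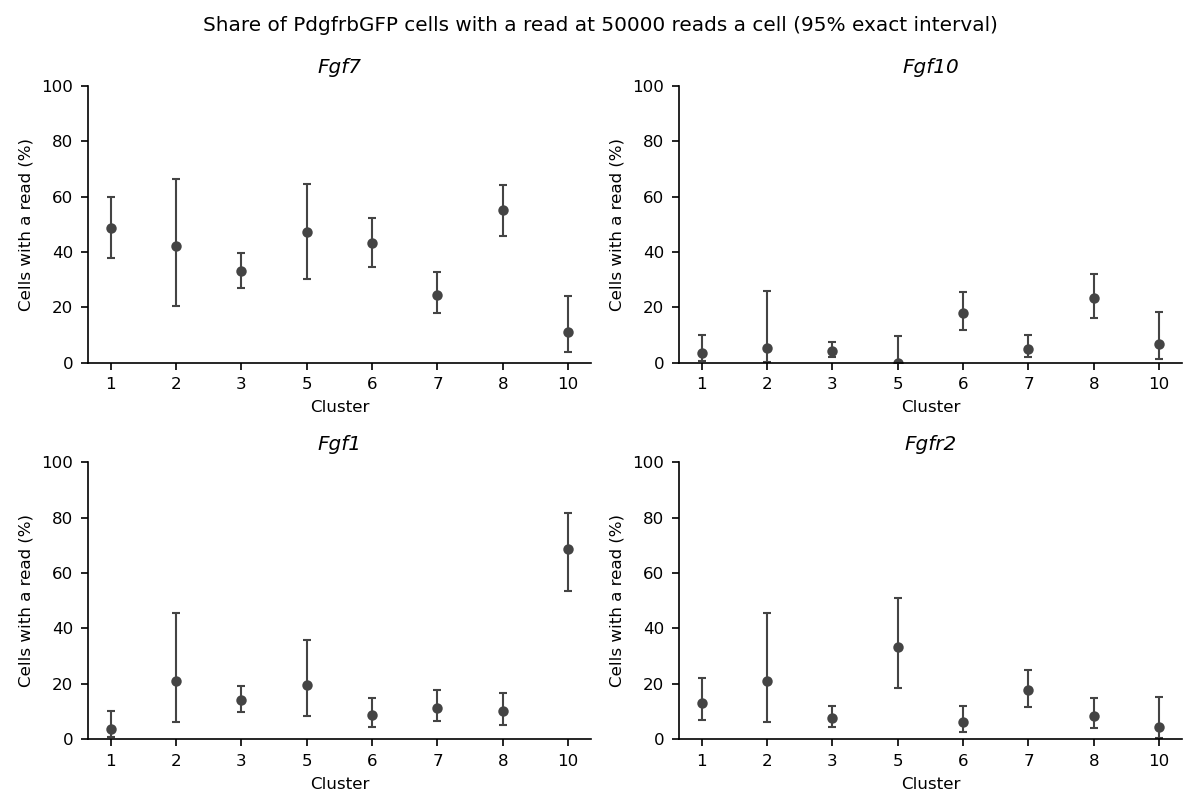
Share of thinned PdgfrbGFP cells with a read (percent, points, with exact 95% intervals) for Fgf7, Fgf10, Fgf1 and Fgfr2 in the clusters with at least 15 such cells. The interval for Fgf1 in cluster 10 (53.4 to 81.8) lies above those of the fibroblast clusters, and Fgf10 is highest in clusters 8 and 6.

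Fgf2, a ligand with broad receptor binding, lies at chr3:37348346-37410108 (plus strand). Its mean level ran from 2.59 ± 4.32 in cluster 11 to 16.4 ± 30.2 in cluster 6, where Acta2GFP (6 cells) had 70.3 and the other lines at most 7.13. Of the neighbours in its order, cluster 5 stood above cluster 11 by 5.13 ± 2.96 (SD, 2 lines), and cluster 10 below cluster 1 in the 3 lines they share (-1.72 ± 1.5), although its mean over all its lines is higher. The share of cells with a read was 4.69% to 18.7% over the 11 clusters. In cluster 10 its level was 9.77, 0, 5.42 and 11.7 in Acta2GFP, C57BL6, Cspg4dsRED and PdgfrbGFP, which overlaps the 11.2, 8.40, 8.18 and 11.3 of their fibroblasts (log2 fold change -1.21 ± 1.45, adjusted p = 0.722). Exons of Fgf2 share 640 bases with Nudt6 on the opposite strand, and without strand the reads of both cannot be told apart there.

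Fgf18 (chr11:33117430-33147400, minus strand) had 369 reads in 20 cells. Its mean level was at most 1.20 in any cluster, and clusters 5, 9 and 10 were at 0 in every line with 3 or more cells. Most of the reads of a cluster lay in 1 to 3 cells, and at most 8.70% of the unthinned cells of any cluster had a read, so the 0 reads of clusters 10 and 5 set no useful bound on a fold. Neither difference passed the test (adjusted p = 0.109 and 0.243).

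Hgf (chr5:16553495-16620152, plus strand) was sparse in fibroblasts and nearly absent from cluster 10. In fibroblasts its level was 0.691 in Acta2GFP, 1.88 in C57BL6, 1.08 in Cspg4dsRED and 3.37 in PdgfrbGFP. In cluster 10 it was 0 in the first 3 of these lines and 0.0654 in PdgfrbGFP, so that the groups did not overlap. The test gave a log2 fold change of -6.69 ± 1.98 (adjusted p = 0.0488), and -5.76 against the median gene. It rests on 1 read in cluster 10 against 2047 in fibroblasts, a ratio of reads per endogenous read of 117.8 with a counting interval of 21.1 to 4655 that takes every read as independent, which PCR reads of few cells are not. The call was lost under 9 of 17 alternatives, with adjusted p from 0.0113 to 0.166, among them without any 1 of Acta2GFP, C57BL6, Cspg4dsRED or PdgfrbGFP (0.0929 to 0.166). The share of thinned mural cells with a read was 0%, which allows up to 2.91%.

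The Hgf level was 4.83 ± 4.45 in cluster 7, where PdgfraGFP had 9.92, C57BL6 8.17, PdgfrbGFP 5.53, Acta2GFP 0.548 and Cspg4dsRED 0. Cluster 5 had 3.96 ± 7.43, cluster 1 2.68 ± 3.73, cluster 8 2.07 ± 1.79 and the other fibroblast clusters 0.313 to 1.46. No neighbours differed by more than their spread. In cluster 5, PdgfraGFP had 15.1 and the other lines at most 0.712, and 1 cell held 76.2% of the reads. Shares were 13.3% (7.49 to 21.4) in cluster 1, 8.79% in cluster 8 and 7.89% in cluster 7. These shares pool lines of unequal cell numbers. In PdgfrbGFP alone, cluster 1 had the higher values by both measures, a level of 8.18 against 5.53 in cluster 7 and a share of 14.3% (7.61 to 23.6) against 7.75% (3.93 to 13.4), with intervals that overlap.

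Met, the HGF receptor, had its highest level in cluster 5 at 8.26 ± 5.97, with a read in 18.4% of its cells and in at most 3.95% of those of any other cluster. Its level there was 8.09 in C57BL6, 0 in the 3 Cspg4dsRED cells, 13.7 in PdgfraGFP and 11.2 in PdgfrbGFP. In the other fibroblasts of those lines it was 2.25, 0.0676, 3.46 and 0.681, and edgeR did not call the difference (log2 fold change 2.61 ± 1.41, adjusted p = 0.503). Of the 10 cluster 5 cells with at least 10 urothelial marker reads 1 had a Met read, and of the 66 without them 13 (19.7%).

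Fgfr1, the main mesenchymal FGF receptor, lies at chr8:25513654-25575718 (plus strand) and was found in nearly all fibroblasts. Its level was 511.1 ± 115.7 in cluster 3, 479.3 ± 149.4 in cluster 6, 427 ± 211.8 in cluster 1, 423.6 ± 129.4 in cluster 11 and 334.8 to 359.5 in clusters 2, 7, 8 and 9. The 3 lowest were cluster 4 with 206.6 ± 113.7, cluster 5 with 159.98 ± 70.2, and cluster 10 with 129.6 ± 85.3. No neighbours in this order differed by more than the SD of their difference over shared lines. Shares ran from 98% (95.8 to 99.2) in cluster 3 to 77.6% in cluster 5, 70.4% in cluster 10 and 52.4% in cluster 4.

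In cluster 10 the Fgfr1 level was 153.3 in Acta2GFP, 3.75 in the 3 C57BL6 cells, 190.7 in Cspg4dsRED and 170.7 in PdgfrbGFP, against 386.2, 405.4, 278.5 and 365.1 in the fibroblasts. The groups did not overlap, yet the log2 fold change of -1.70 ± 0.77 did not pass (adjusted p = 0.196) and was -0.77 against the median gene. Over 17 alternatives the adjusted p ran from 0.0373 to 0.700 with 1 call, without a filter on low counts, and all 7 sets within plates had the lower level in cluster 10. In the comparison of cluster 5 with the other fibroblasts 0.935% of 16145 genes were called, 0.390% as higher and 0.545% as lower, with a median log2 fold change of -0.77. In cluster 5 the Fgfr1 level was 179.4, 247.9, 85.1 and 127.6 in C57BL6, Cspg4dsRED, PdgfraGFP and PdgfrbGFP, against 425.1, 279.1, 444.7 and 376.9 in their other fibroblasts. Here too the groups did not overlap, with a log2 fold change of -1.43 ± 0.32 (adjusted p = 0.0793), and -0.66 against the median gene. Over 17 alternatives the adjusted p ran from 0.00282 to 0.467 with 4 calls, without a filter on low counts, with sums per plate and line, with limma-voom and with thinned cells. All 5 sets within plates had the lower level in cluster 5.

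Fgfr2 encodes the receptor whose epithelial form binds FGF7 and FGF10. Its annotated span is chr7:130162451-133123350 (minus strand) and runs over many neighbouring genes, but its exons share bases only with Ctbp2, on the same strand. Its level in cluster 5 was 79.1 in C57BL6, 32.1 in the 3 Cspg4dsRED cells, 24.8 in PdgfraGFP and 29 in PdgfrbGFP. The other fibroblasts of those lines had 4.92, 0.885, 11.5 and 6.53, and the groups did not overlap. The log2 fold change was 3.49 ± 1.10 (p = 0.00869 in edgeR) and the adjusted p 0.204, so it was not called. DESeq2 called it (0.000964), in a range over 17 alternatives of 0.000964 to 0.561. All 5 sets within plates were higher in cluster 5. A read was found in 34.2% of cluster 5 cells (23.7 to 46) and in 3.30% to 18.9% of those of the other clusters. Of the 10 cluster 5 cells with at least 10 urothelial marker reads 1 had an Fgfr2 read, and of the 66 cells without them 25 (37.9%).

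Of the 9 testable genes of the set, edgeR called 0 in cluster 5 against the other fibroblasts, with 5 at an unadjusted p under 0.05, as were 2127 of the 16145 genes tested. DESeq2 called 3 (Fgf10, Fgfr2, Fgfr3) and limma-voom 2 (Fgfr1, Fgfr3). Over all genes edgeR called 0.935%, DESeq2 8.83% and limma-voom 3.38%. The ligands Fgf7, Fgf2, Fgf1 and Hgf had log2 fold changes of 0.13 ± 1.42, -0.91 ± 1.5, -3.28 ± 1.95 and -1.57 ± 2.00 in cluster 5, with adjusted p from 0.569 to 0.986. Fgf10 stood at 12 reads in cluster 5 against 4450 in the other fibroblasts (log2 fold change -4.78 ± 1.78, adjusted p = 0.250).

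The next Fgfr2 level was that of cluster 7, 18.9 ± 16.7, where PdgfraGFP had 42.9, PdgfrbGFP 23.3, C57BL6 21.7, Acta2GFP 6.45 and Cspg4dsRED 0. A read was found in 18.9% of its cells (14 to 24.6). Cluster 5, which had the highest Fgfr2 level, was left out of the 9 fibroblast clusters compared next. Cluster 7 against the mean of the other 8 gave a log2 fold change of 4.72 ± 1.20 (edgeR, adjusted p = 0.0350), and this was the only pair called of the 9 genes and 9 clusters, against 0.621% of 132984 pairs over all genes. No member pair was called without C57BL6, without PdgfraGFP, without PdgfrbGFP, without cells with urothelial reads or without cluster 4. Cluster 10 had 14.4 ± 24.6, from 51.1 in Acta2GFP and 1.00 to 4.15 in the other lines, and 3 cells held 88% of its reads. Clusters 1, 2 and 11 had 3.04 to 3.79 and the rest at most 2.27.

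Fgfr3, a receptor well known for its mutations in urothelial cancer, lies at chr5:33721674-33737068 (plus strand). In cluster 5 its level was 0.112 in C57BL6, 0 in Cspg4dsRED and PdgfraGFP and 0.888 in PdgfrbGFP, against 35.7, 55.4, 8.74 and 12.1 in their other fibroblasts. The groups did not overlap. The log2 fold change was -7.18 ± 1.67 (adjusted p = 0.0869) and did not pass, and over 17 alternatives the adjusted p ran from 1.01e-06 to 0.341 with 6 calls. In thinned cells the share in cluster 5 was 6.58% (2.17 to 14.7) and 11 unthinned cells held its 21 reads. In PdgfrbGFP alone the cluster 5 share was 11.1% (3.11 to 26.1). The other fibroblast clusters with at least 15 such cells had 5.26% to 16.3%.

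Elsewhere the level of Fgfr3 varied widely between lines, and some of the highest values rest on 1 cell. It was 92.5 ± 133.3 in cluster 6 with 325.7 in the 3 Cspg4dsRED cells and 76.8 in Acta2GFP, each from 1 cell with a read, and with 40 in C57BL6, 4.35 in PdgfraGFP and 15.7 in PdgfrbGFP. Cluster 3 had 40.1 ± 27.4, cluster 9 25.7 ± 35.6, cluster 4 23.9 ± 26.5, cluster 8 22.7 ± 45.6 and cluster 10 16 ± 15.8, and no neighbours differed by more than their spread. Shares were 1.96% to 19%. In cluster 10 the levels of 6.92, 0, 35.4 and 21.7 overlapped the 12.5, 32.9, 54.2 and 11.6 of the fibroblasts of Acta2GFP, C57BL6, Cspg4dsRED and PdgfrbGFP (adjusted p = 0.672). Exons of Fgfr3 share 998 bases with G630022F23Rik on the opposite strand.

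Fgfr4 (chr13:55152640-55168759, plus strand), the remaining receptor of the family, had 44 reads in 1 cell of cluster 5 and 2 reads in 1 cell of cluster 10, and was too low to be tested.

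**Figure D5:**
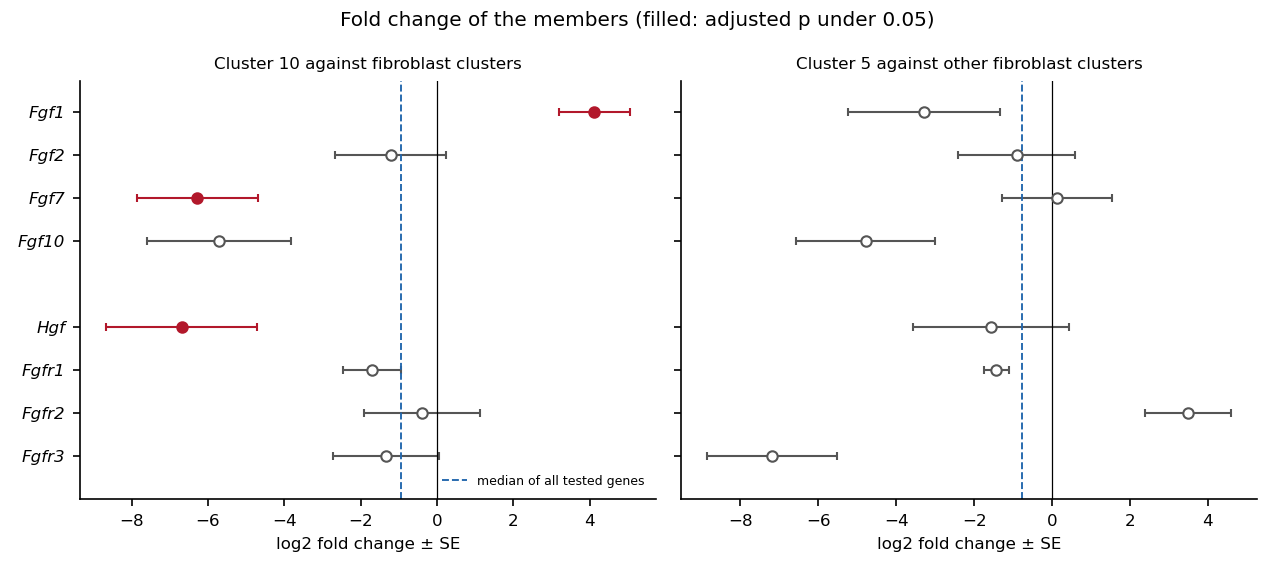
Log2 fold change ± SE of each gene in cluster 10 against fibroblasts (left) and in cluster 5 against the other fibroblasts (right), with filled points for an adjusted p under 0.05 and a dashed line at the median of all tested genes. Fgf18, at 0 in clusters 10 and 5, and Fgfr4, not tested, are left out; Fgf1, Fgf7 and Hgf are filled on the left and none on the right.

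Among the 9 fibroblast clusters other than cluster 5, the test of any difference called 2.54% of 14776 genes and 0 of the 9 testable genes of the set. Of all genes tested 2232 had an unadjusted p under 0.05, and of the set 3: Fgf1 (p = 0.0107, adjusted p = 0.160), Fgfr3 (0.0120, 0.169) and Fgfr2 (0.0334, 0.274). DESeq2, which called 6.09% of all genes, called Fgf1 and Fgfr3, and limma-voom, which called 6.87%, called Fgfr1 and Fgfr3. The adjusted p in edgeR was 0.524 to 1.00 for the others. Differences among these fibroblast clusters in Fgf2, Fgf7, Fgf10, Fgf18 and Hgf were not called by any of the 3 tools. What size of difference could have been called was not tested.

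The other genes of the pathway were read from lists. Over all genes DESeq2 called 18.6% and limma-voom 10.6% in cluster 10, against which their counts below are read. An unadjusted p under 0.05 in edgeR was found for 3559 of 16092 genes in cluster 10 and for 2127 of 16145 in cluster 5, and the median log2 fold changes over all genes were -0.93 and -0.77. Of 17 further FGF family genes 6 could be tested in cluster 10, among them Fgf11, Fgf13 and Fgf14, whose products stay in the cell and are not receptor ligands. In edgeR 2 of the 6 were called lower, 1 of them a secreted ligand, with a median log2 fold change of -3.07 against -0.93 for all genes. Fgf9, a secreted ligand, had 1.66 ± 1.46 in cluster 10 and 32.2 ± 14.9 in fibroblasts (log2 fold change -5.15 ± 1.32, adjusted p = 0.0236). The other was Fgf14, which had 1 read in cluster 10 and 941 in fibroblasts (adjusted p = 0.0448). By cluster, the Fgf9 level was 51.6 in cluster 11, 49.1 in cluster 1, 43 ± 3.06 in cluster 3 and 40.8 in cluster 8, and 3.93 in cluster 7 and 2.78 in cluster 5. In cluster 5, edgeR called 0 of 7 tested genes of this list, with 4 at an unadjusted p under 0.05, DESeq2 3 and limma-voom 0.

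Heparan sulfate enzymes set how FGFs are held and presented. Of 11 genes 10 were tested and edgeR called 3 lower in cluster 10, with a median of -3.88. DESeq2 called 6, adding Hs6st1, Glce and Ndst2, and limma-voom 4, adding Ndst2. Sulf1 and Sulf2, extracellular enzymes that remove sulfate groups from heparan sulfate, had levels of 3.38 ± 4.10 against 198.97 ± 51.6 and of 15.5 ± 8.81 against 221.8 ± 76.7 (log2 fold changes -6.45 ± 0.92 and -3.81 ± 0.76, adjusted p = 0.000115 and 0.00364). Hpse, which cleaves the chains, had 0.270 against 17.8 ± 9.00 (adjusted p = 0.0270). In cluster 5 against the other fibroblasts Sulf1 was again lower, 5.87 ± 5.26 against 213.1 ± 61 (log2 fold change -5.74, adjusted p = 0.00179), as 1 of 10 tested in edgeR and in limma-voom. DESeq2 called 2, Sulf1 and Hpse. Hpse differed the other way than in cluster 10, with 60.6 ± 15.1 in cluster 5 against 15.3 ± 8.16 (log2 fold change 2.54 ± 0.76, adjusted p = 0.185 in edgeR).

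Of 16 co-receptor and carrier genes 12 were tested. In cluster 10 edgeR called 0, with 3 at an unadjusted p under 0.05, while DESeq2 and limma-voom each called 2 (Sdc3, Gpc4). In cluster 5 edgeR called 1 of 12, and DESeq2 and limma-voom 2 each (Gpc1, Gpc3), which are glypicans that went opposite ways. Gpc1 had 75.4 ± 25.3 against 8.11 ± 5.16 (log2 fold change 3.44 ± 0.79, adjusted p = 0.0817 in edgeR). Gpc3 was lower, 21.7 ± 29.3 against 170 ± 36.7 (log2 fold change -4.35, adjusted p = 0.0165). Of 9 genes of the HGF list 5 were tested in cluster 10. Spint2, an inhibitor of the proteases that activate HGF, was higher at 71 ± 40 against 1.77 ± 0.850 (log2 fold change 5.30 ± 1.09, adjusted p = 0.00449). Plat, the tissue plasminogen activator, was lower at 17 ± 14.9 against 186.5 ± 41 (-4.11 ± 0.78, adjusted p = 0.00225). In cluster 5 edgeR called 0 of 5, also 0 at an unadjusted p under 0.05, DESeq2 1 (Met) and limma-voom 0.

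The 13 receptor adaptors and kinases stayed uncalled in edgeR in both comparisons, with 0 at an unadjusted p under 0.05 and medians of 0.02 in cluster 10 and -0.60 in cluster 5. DESeq2 called 1 (Grb2) in cluster 10 and 0 in cluster 5, limma-voom 0 in both. Of 14 feedback and target genes 13 were tested, and edgeR called 0 in both, with 3 at an unadjusted p under 0.05 in each and medians of -2.38 and -1.75, beside -0.93 and -0.77 over all genes. DESeq2 called 3 in cluster 10 (Spred1, Il17rd, Etv5) and 2 in cluster 5 (Spry2, Etv5), and limma-voom 1 (Il17rd) and 0.

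Among the 9 fibroblast clusters, the edgeR test of any difference called 2.54% of all genes. Of 10 tested heparan sulfate enzymes it called 1, Ndst1 (adjusted p = 0.0271). Of 13 tested feedback and target genes it called 2, Spry1 (0.0125) and Etv4 (0.0277). In the other pathway lists it called none. In these 2 lists DESeq2 called 2 and 3, without Etv4, and limma-voom 2 and 4, with Etv4. These genes were named after their values were seen. Ndst1, a heparan sulfate N-sulfotransferase, was lower in cluster 2 (log2 fold change -4.39 ± 1.01, adjusted p = 0.00967). Spry1, a feedback inhibitor of FGF signalling, was higher in cluster 6 (2.28 ± 0.47, adjusted p = 0.0444), and Spry2 in cluster 2 (2.19 ± 0.61, 0.0460). Etv4, a transcription factor downstream of FGF receptors, was higher in cluster 4 (9.30 ± 1.51, 0.00134, from 2 lines). The Etv4 level over all fibroblasts was near the floor, at 0.573 ± 0.801.

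After thinning, most fibroblasts had a read of 1 receptor gene and of at most 1 ligand gene. Of 1348 thinned fibroblasts, 49.6% had a read of none of the 6 ligand genes, 35.9% of 1, 12.2% of 2, 2.08% of 3 and 0.148% of 4. Of the 4 receptor genes, 5.64% had none, 74.5% had 1, 18.5% had 2 and 1.41% had 3. Fgf7 was found in 43 of 89 cells with Fgf10 (48.3%) and in 30.7% of all, and Fgf10 in 10.4% of the cells with Fgf7. Fgfr2 was found in 10 of 41 cells with Met (24.4%) and in 10.1% of all. In cluster 5, 17.1% of cells had no receptor read, 50% had 1 and 28.9% had 2. These shares are limited by depth and pool lines and clusters, so they describe detection and not presence.

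The genes with the most similar levels were sought over 43 sums per line and cluster among 15807 genes, as a description, since the sums share lines and depth. For Fgf1 they were Olfml2a (Pearson r = 0.804), P3h2 (0.766) and Cpe (0.753). For Fgf7 they were Echdc2 (0.788), Gm26883 (0.785) and Wdr24 (0.778), and for Hgf Tmem255a (0.718), Slc22a21 (0.683) and Acot1 (0.663). Fgfr1 was most like Atxn10 (0.828), Chst12 (0.825) and Psap (0.820), and Fgfr2 most like Chst2 (0.708), Thsd4 (0.670) and Tspan8 (0.650). For Fgf2, Fgf10 and Fgfr3 the first gene was Nudt6 (0.809), Gm16263 (0.673) and G630022F23Rik (0.849), each of which overlaps exons of that gene on the opposite strand, and reads within the shared bases, a part of the exons, cannot be told apart. Arhgap12 (0.786) and Echdc1 (0.775) followed for Fgf2, 6330403K07Rik (0.650) and Myocos (0.640) for Fgf10, and Heyl (0.697) and Vcpkmt (0.675) for Fgfr3. For Fgf18 the closest were Ccl2 (0.719), Minar2 (0.667) and Ces1d (0.658).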

How the data were processed

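Single cells were prepared by Smart-seq2 (oligo-dT priming, PCR without molecular identifiers, single reads). The deposited table holds raw counts per gene, which the authors made with TopHat2 and featureCounts on GRCm38. The annotation release and the strand setting are not given in the sources used here. The authors removed shallow, stressed and contaminated cells and doublet alignments, and no doublet caller was run here. All 1479 columns matched a labelled cell, and 92 ERCC spike-in rows stayed out of library sizes. Symbols and coordinates came from GENCODE (GRCm38, 46005 of 46517 rows), promoters from RefSeq.

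Counts were summed per line and class (at least 3 cells) and tested with edgeR 4.0.16 (quasi-likelihood, TMM, filterByExpr, line as block, 3 residual degrees of freedom in each comparison of 2 classes), Benjamini-Hochberg adjusted over all tested genes, threshold 0.05. Clusters had been drawn from these same expression values, so a test says how far a difference repeats over lines. Alternatives included DESeq2 1.42.0, limma 3.58.1, other scaling, filters, sums and each line left out. Cells were thinned to 50000 reads for shares (6 shallower cells left out) and 0 counts were set against a floor of 3. The tests were tried on simulated data. Named genes were the set, up to 3 called genes per list with the largest fold change, Met, and the 3 most similar genes. Other list genes named beside counts were named after their values were seen. The set and the lists were chosen with earlier results of these data known.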

Additional observations from a re-analysis of the deposited data

Results flagged for a closer look

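In groups of 4 or 5 lines, Dixon's criterion (95%) was applied to each gene and cluster with a mean level of at least 1. By it 1 line stood apart in 20 of 56 groups. For normally distributed values chance gives about 1 in 20. These levels cannot be negative and some rest on 1 cell with a read, so that rate was not shown to hold here. The count is therefore a description and not a measure of excess. Levels are reads per 500000, with the nearest other line in brackets.

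For the ligand genes, PdgfrbGFP stood apart for Fgf1 in cluster 2 with 5.70 (1.29) and in cluster 5 with 3.57 (0.573), and Cspg4dsRED in cluster 8 with 87.7 (18.5). For Fgf2 the lines were PdgfrbGFP in cluster 2 with 18.3 (5.21) and Acta2GFP in cluster 6 with 70.3 (7.13). For Fgf7 it was Cspg4dsRED in cluster 6 with 119.3 (32.9), a value of 3 cells. Fgf10 was at 35.4 (0.611) in PdgfraGFP of cluster 2 and at 8.24 (0.952) in Acta2GFP of cluster 7, and Fgf18 at 5.55 (0.466) in Acta2GFP of cluster 7. Hgf was at 7.01 (0.274) in cluster 2 and at 15.1 (0.712) in cluster 5, both in PdgfraGFP.

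For the receptors, Fgfr2 was at 79.1 (32.1) in C57BL6 of cluster 5, at 5.90 (1.69) in Cspg4dsRED of cluster 8 and at 51.1 (4.15) in Acta2GFP of cluster 10. Fgfr3 was at 29.2 (3.85) in Acta2GFP of cluster 1, at 325.7 (76.8) in the 3 Cspg4dsRED cells of cluster 6, at 44 (5.52) in C57BL6 of cluster 7 and at 104.03 (7.62) in Cspg4dsRED of cluster 8. Met was at 13.1 (1.75) in PdgfraGFP of cluster 7 and at 6.82 (0.0746) in Acta2GFP of cluster 10.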

How the results depend on the processing

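By replicate number, no paired analysis was possible because the labels number no replicates. The classes were instead compared within lines, with the line as a block. A pooled level can rest on few cells, a line left out of a comparison of 4 leaves 2 residual degrees of freedom, and the 3 C57BL6 cells of cluster 10 and 3 Cspg4dsRED cells of cluster 5 carry a whole line. Leaving out a line that a comparison did not use changed nothing there. Causes of the changes below were not tested.

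Of the genes tested, 6.38% were called in cluster 10 against fibroblasts, with 18.6% by DESeq2, 17.2% with sums per plate and line and 10.6% by limma-voom, and 3.02% (without Cspg4dsRED) to 6.80% with a line left out. In cluster 5 it was 0.935%, with 8.83% by DESeq2, 0.907% of a longer gene list without a filter on low counts, 3.82% per plate and line, 1.51% with at least 10 cells, 3.38% by limma-voom, 2.60% without the line block, 2.59% with thinned cells, and 0.758% to 1.51% with a line left out. With the median gene at 0, 70.5% of the calls in cluster 10 were higher (35.6% otherwise) and 77.2% of those in cluster 5 (41.7% otherwise). Any difference among the 9 fibroblast clusters was called for 2.54%, with 6.09% by DESeq2, 6.33% per plate and line, 1.15% with at least 10 cells, 6.87% by limma-voom, 7.26% without the line block, 1.93% with thinned cells, and 0.324% (without PdgfrbGFP) to 1.77% with a line left out. Of pairs of gene and cluster 0.621% were called, with 3.97% by DESeq2, 1.15% per plate and line, 1.02% by limma-voom, 2.74% without the line block, 0.476% with thinned cells, and 0.143% to 0.940% with a line left out.

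Of the 10 genes, 3 were called in cluster 10, 1 with the median gene at 0 and 0 to 3 with a line left out (0 without Acta2GFP or PdgfrbGFP, 1 without Cspg4dsRED). In cluster 5 it was 0, with 3 by DESeq2, 2 without a filter, 3 per plate and line, 2 by limma-voom, 1 without the line block and 2 with thinned cells, and 0 with a line left out. For any difference it was 0, with 2 by DESeq2, 2 by limma-voom, 1 without the line block and 0 with a line left out. Pairs numbered 1, with 3 by DESeq2, 3 without the line block, 0 without cells with urothelial reads, 0 without cluster 4 and 0 to 1 with a line left out.

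The log2 fold change turned sign for Fgf7 in cluster 5 (-0.01 without a filter, -0.19 with thinned cells, -0.75 to 1.13 with a line left out), for Fgfr2 in cluster 10 (0.54 with the median gene at 0, 0.40 with at least 10 cells, 0.86 without the line block, 0.40 without cells with urothelial reads, -1.33 to 0.40 with a line left out) and for Hgf in cluster 5 (0.48 without the line block). None of these was called.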
